A study of Mus musculus with 8 samples.

Results

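The Foxk1 peaks of mouse chromosome 7 were described, which were all entries of the deposited peak list with that chromosome name. They numbered 944 of 28933 peaks. Chromatin came from untreated mouse embryonic fibroblasts (MEFs, connective-tissue cells cultured from embryos) grown in DMEM, whose genotype and strain the labels do not give. The series held 3 libraries immunoprecipitated with a Foxk1 antibody, 3 with control IgG and 2 of input, chromatin kept without any antibody. The track line of the list gives the comparison as Foxk1 over input and the assembly as mm9. Each peak has a signal value and a q-value, both given by the authors, and no value per library. No result below therefore carries a replicate error or a test, and the differences given between chromosome 7 and the rest of the list are descriptions. The members were chosen by the peak calls themselves, that is by q-values under 0.01 in the list, and by chromosome. Their number and signal values therefore describe the list and support nothing further. IgG values were not analysed here, and enrichment that does not depend on the Foxk1 antibody cannot be told apart.

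Foxk1 is a forkhead transcription factor, which binds DNA through a winged-helix domain. Together with its relative Foxk2 it is known for controlling genes of autophagy and of glucose metabolism. Mouse chromosome 7 is known for large tandem families, among them receptors of the nose and of the vomeronasal organ, kallikreins, carcinoembryonic and pregnancy-specific glycoproteins and secretoglobins. Receptors for odours and pheromones are made in sensory neurons and are largely silent in other cells. No sequence or gene annotation of mm9 was used here, so no gene is named for any peak and no peak sequence is shown. Placements of gene families on the stretches below are general background on this chromosome. Their limits were not looked up on mm9.

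Chromosome 7 carried few peaks, and they were unevenly spread. Density was 6.19 peaks per Mb, against 11.3 in the rest of the list and 5.98 and 21.9 on chromosomes 12 and 19. The chromosome made up 5.79% of the length compared (chromosomes 1 to 19 and X, each up to its highest peak) and held 3.26% of the peaks. The first summit lay at 3.41 Mb with a signal value of 14.7, and the last at 152516478 with 16.3. First summits of the other 18 autosomes lay between 3.08 and 8.64 Mb, and the part before the first summit was not counted as an empty stretch on any chromosome.

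Empty stretches, taken as distances of over 2 Mb between neighbouring summits, numbered 13 on chromosome 7 and 91 on the other chromosomes. Together they took 45.7 Mb, or 29.9% of chromosome 7, against 11.7% of the rest. The same share was 26.3% on chromosome 12, 43.8% on X and 0 on chromosome 19. Of the 20 chromosomes compared, chromosome 7 came after X alone in this share. The median length of a stretch was 2.92 Mb on chromosome 7 and 2.69 Mb elsewhere.

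The empty stretches lay mostly in the centromere-side part of the chromosome. Below 50 Mb there were 7 of them, with a total of 29.9 Mb, or 59.8% of these 50 Mb. Beyond 50 Mb there were 6, with a total of 15.8 Mb. Peaks numbered 169 below 50 Mb and 775 beyond it, which are 3.38 and 7.56 peaks per Mb. Their strength did not follow this split in the same way: the median signal value was 17.4 below 50 Mb and 18.1 beyond it, and a signal value of 50 was reached by 7.69% and 6.45% of the peaks.

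Several of the stretches below 50 Mb lie, by background knowledge, in regions of tandem gene families. The first ran for 6.74 Mb between summits at 6748741 and 13490766, whose signal values were 11.9 and 13.4. This interval is known to hold vomeronasal receptor genes of both families, Vmn2r and Vmn1r, with zinc-finger genes. The stretch of 2.92 Mb between 13631709 and 16548209 is known for the sulfotransferase family Sult2a and the oocyte homeobox family Obox. The stretch of 2.04 Mb between 17460386 and 19495899 is the region of the pregnancy-specific glycoproteins, Psg, which are placental proteins. The fourth, of 4.32 Mb between 20542023 and 24866791, is the region of the longest run of Vmn1r genes. The fifth, of 2.97 Mb between 31946016 and 34916341, is that of the secretoglobins of the androgen-binding protein cluster, Scgb, which are secreted in saliva and tears.

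No gene family is assigned here to the sixth and seventh stretches. The sixth ran for 3.12 Mb between 35752709 and 38870222, and the seventh for 7.78 Mb between 39015645 and 46800411. The seventh was the longest stretch of the chromosome and ranked 4 among the 104 stretches of the list. Its left neighbour had a signal value of 12.4 and its right neighbour 18.5. How much of any stretch is sequence to which reads cannot be assigned was not tested.

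The longest stretches of the chromosome, of 7.78, 6.74 and 4.32 Mb, lay below 50 Mb, as did the shortest, of 2.04 Mb. Of the 6 beyond 50 Mb, the longest, of 3.66 Mb, lay between 59134892 and 62795403, with signal values of 41.1 and 23.4 at its sides. Another, of 2.28 Mb, lay between 63369628 and 65649518, with signal values of 18.0 and 26.9 at its sides. By background knowledge, the stretch of 2.33 Mb between 91928161 and 94259335 is the place of a mixed group of Vmn2r and olfactory receptor genes. That of 2.70 Mb between 113380234 and 116085160 is known for olfactory receptor genes. Stretches of 2.73 Mb, from 82945167 to 85671194, and of 2.06 Mb, from 130554730 to 132615799, are given no family here.

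Of 236 intervals of 1 to 2 Mb between neighbouring summits in the whole list, 17 lay on chromosome 7, which made up 5.79% of the length compared. These 17 added 24.3 Mb, and 13 of them lay beyond 50 Mb. A pair of these shared a lone peak at 111009676, with a signal value of 14.9. It stood 1.61 Mb from its left neighbour at 109399578 and 1.64 Mb from its right neighbour at 112650674. By background knowledge, not looked up on mm9, this is the region of the beta-globin genes, which lie among olfactory receptor genes on mouse chromosome 7. A similar lone peak at 144277930, with a signal value of 25.2, stood 1.27 Mb and 1.82 Mb from its neighbours. Another, at 48754938 with a signal value of 12.9, stood 1.95 Mb and 1.19 Mb from its own. Peaks with no other summit within 1 Mb thus numbered 3 on chromosome 7 (0.32%), and 37 in the whole list (0.13%).

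Peaks at the sides of the empty stretches were not set apart in median strength. The 26 flanking peaks had a median signal value of 18.3, against 17.95 for the other 918 peaks of the chromosome. Their values ran from 11.4 to 264. A signal value of 50 was reached by 1 of the 26 (3.85%), against 6.67% of all chromosome 7 peaks and 7.97% of the whole list. With 1 such peak, this share says little.

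Between the empty stretches the peaks formed 14 blocks. The 3 fullest were the last of the chromosome and held 512 peaks, or 54.2% of its total, on 53.5 Mb. Block 14, from 132615799 to the last summit, held 182 peaks, of which 15 had a signal value of at least 50. Block 13, from 116085160 to 130554730, held 171 peaks at 11.8 per Mb, but only 5 that reached 50. Block 12, from 94259335 to 113380234, held 159 peaks at 8.32 per Mb, and 13 reached 50. Block 13 was thus denser than block 12 and had fewer strong peaks. For comparison, a signal value of 50 was reached by 6.67% of all chromosome 7 peaks and by 7.97% of the whole list.

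Several blocks nearer the centromere were short, with many peaks per Mb of their span. The span runs from first to last summit and leaves out the empty stretches, so a short block can come out dense by construction. Block 4, from 19495899 to 20542023, held 30 peaks on 1.05 Mb, or 28.7 per Mb, with a median signal value of 15.9. Block 3, from 16548209 to 17460386, held 15 at 16.4 per Mb, and block 6, from 34916341 to 35752709, held 13 at 15.5 per Mb. Block 5, from 24866791 to 31946016, was the largest below 50 Mb, with 79 peaks at 11.2 per Mb and 7 of at least 50. A further 3 blocks held fewer than 10 peaks each and 10 peaks in all. Block 2, with 5 peaks on 0.141 Mb, came to 35.5 per Mb, block 7, with 2 peaks, to 13.8 and block 9, with 3 peaks, to 5.22. So few peaks do not give a density that can be set beside that of a chromosome. The highest signal value was 22.4 in block 2 and 23.4 in block 9.

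**Figure D1:**
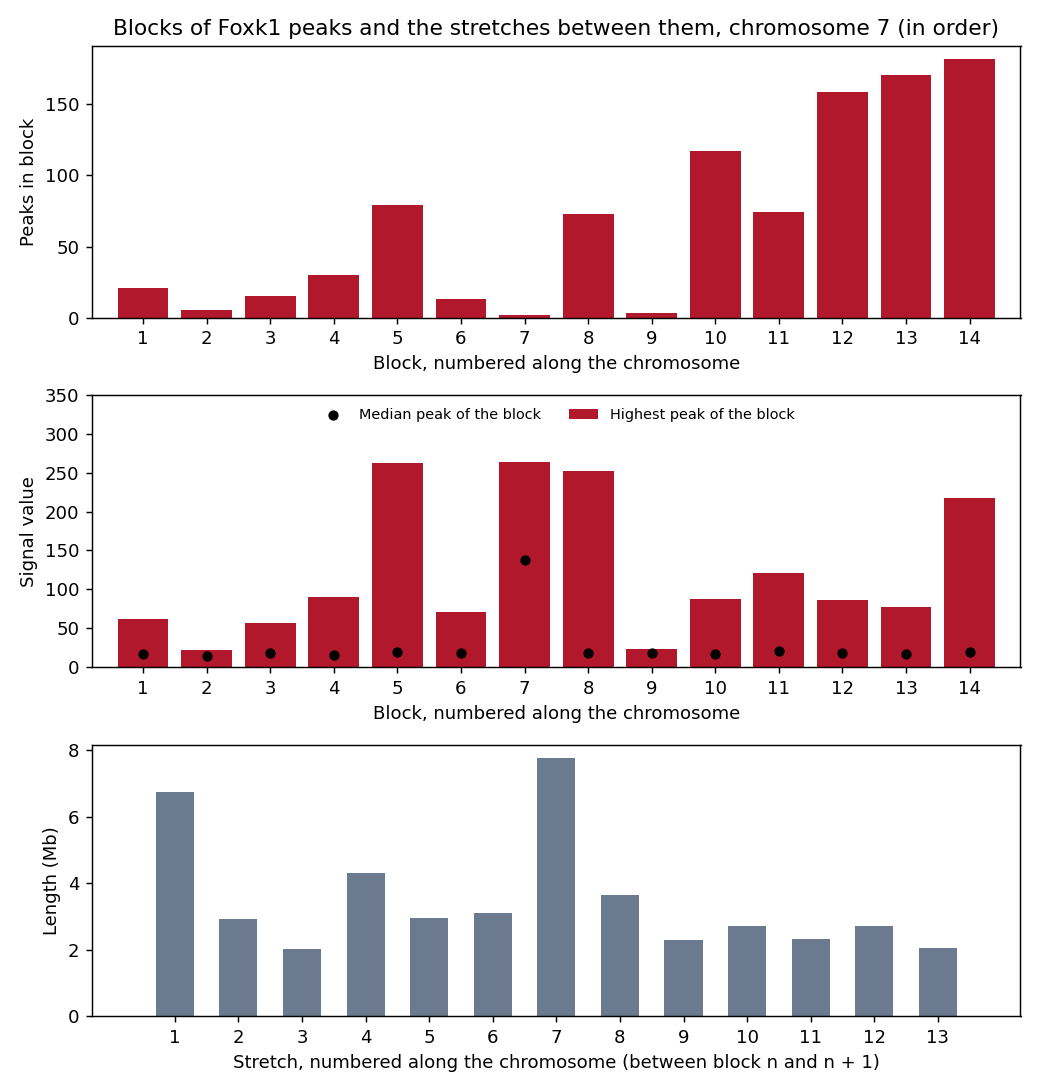
Blocks of peaks along chromosome 7 in their order, with the number of peaks (top) and the highest and median signal value of each block (middle), and the length in Mb of the 13 empty stretches between them (bottom). Blocks 12 to 14 hold the most peaks, whereas block 7 holds 2 peaks and the highest signal value of the chromosome, 264, and stretch 7 after it is the longest, at 7.78 Mb.

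Windows of 1 Mb were laid over the whole chromosome, empty stretches included. Of 153 windows, 111 (72.5%) held a peak, against 86.2% in the rest of the list. The other 42 held none, and the empty stretches are part of this count. On chromosome 7, 26 windows held 472 of the 944 peaks, a count not given for the rest. The fullest window, from 119000001 to 120000000, held 37 peaks with a median signal value of 18.2 and a highest one of 77.7. The window from 52000001 to 53000000 held 35, with a median of 21.3 and a highest value of 252. Next came the window from 87000001 to 88000000 with 28 peaks, and those from 107000001 to 108000000 and from 135000001 to 136000000 with 23 each. At 100 kb, the fullest window ran from 87900001 to 88000000 and held 9 peaks, with a median signal value of 21.4. The next 4 named windows held 7 each and started at 52700001, 52900001, 82700001 and 86400001. A further pair with 7 started at 117200001 and 119400001.

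The strongest peak of chromosome 7, from 38869992 to 38870451, had a signal value of 264 and ranked 8 in the whole list. It stood nearly alone. Its left neighbour was 3.12 Mb away with a signal value of 17.4, and its right neighbour was 145 kb away with 12.4. Beyond this right neighbour the stretch of 7.78 Mb began, so that the peak and 1 weak companion formed block 7. Within 10 Mb of it there were 53 other peaks, 49 on its left and 4 on its right, and the highest of them had a signal value of 82.1.

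**Figure D2:**
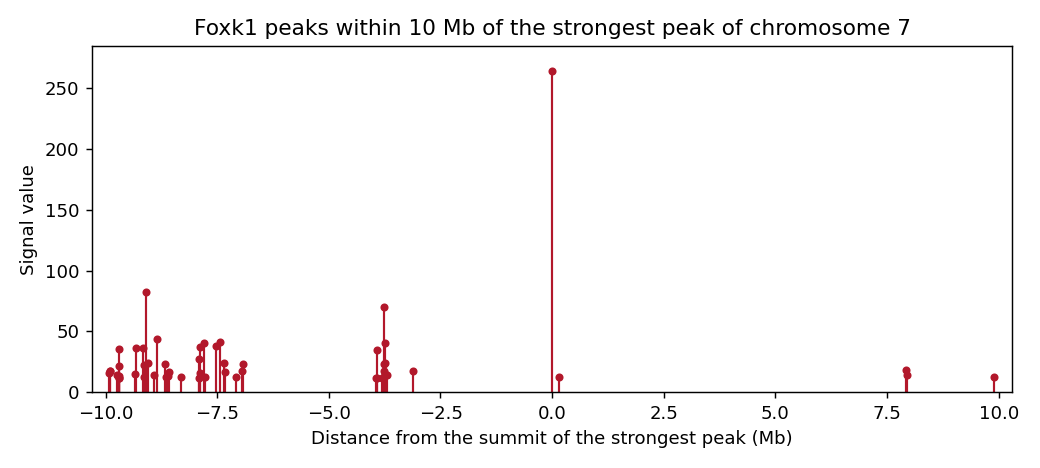
Signal value of each peak within 10 Mb of the strongest peak of chromosome 7, against the distance in Mb from its summit, where negative distances point to the centromere side. The strongest peak, at 264, has 1 other peak within 2 Mb and none between its right neighbour and 7.93 Mb.

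The other peaks above 200 had company. The peak from 26443881 to 26444340 had a signal value of 263 and ranked 10 in the list, with 5 other peaks within 100 kb. A peak 53.0 kb to its right had 71.8, and a further 43.2 kb on lay the peak ranking 9 on the chromosome, from 26540065 to 26540524, with 103. The peak from 52104256 to 52104715 had 252 and ranked 14 in the list. A summit 781 bp to its right had a signal value of 41.03, and 38 other peaks lay within 1000 kb. The peak from 148042067 to 148042526 had 217 and ranked 39 in the list. It had a companion of 18.2 at 893 bp and no other peak on its left for 735 kb.

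A wide step in strength followed these 4 peaks. The fifth had a signal value of 121, which is 96.2 below the fourth, and no peak of the chromosome lay in between. It ran from 89682474 to 89682933 and had no other peak within 10 kb. The peaks from 135075914 to 135076373 and from 138103354 to 138103813 had signal values of 119 and 114, each with 2 others within 10 kb. The peaks from 51809121 to 51809580 and from 52272955 to 52273414 had 105 and 102. They lie on both sides of the peak of 252, so that 3 of the 10 strongest peaks stood within 0.46 Mb. Just below the first 10 came a signal value of 96.3, from 135039018 to 135039477. At the other end of the list the lowest values on the chromosome were 11.32, from 119313918 to 119314377, and 11.34, from 52726180 to 52726639, with q-values of 0.00994 and 0.0099.

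Most peaks of the chromosome had signal values like those of the rest, and strong peaks were a smaller share. The median was 18.0, against 17.8 in the rest, while the 75th percentile was 25.3 against 27.7 and the 90th was 41.0 against 44.8. On chromosome 7, 63 peaks (6.67%) reached a signal value of 50, against 7.97% of all peaks. A value of 100 was met or passed by 10 peaks (1.06%), against 1.47% of all peaks. These shares were lower still on the sparse chromosomes 12 and X. They were 5.38% and 3.87% at 50, and 0.69% and 0.18% at 100. The lowest q-value of the list, 0.00014, was given to 102 peaks, or 10.8%, and to 12.3% of all peaks. Above 200 the order turned, with 4 of 58 such peaks, or 6.90%, on a chromosome that held 3.26% of the list. That share rests on these 4 peaks alone. The lowest signal value listed was 11.32, and these percentages leave out any weaker enrichment.

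Neighbouring peaks were farther apart on chromosome 7. The median distance between summits was 37.4 kb, against 24.5 kb in the rest of the list, 45.5 kb on chromosome 12 and 15.1 kb on chromosome 19. Another summit within 5 kb was found for 255 peaks, or 27.0%, and for 39.6% of all peaks. On chromosomes 12 and X, which were also sparse, it was 27.9% and 28.6%. Such a neighbour was found for 30.2% of the chromosome 7 peaks that reached 50 and for 26.8% of those under 50. Among strong peaks of the whole list, by the same limit of 50, the share was 46.1%.

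**Figure D3:**
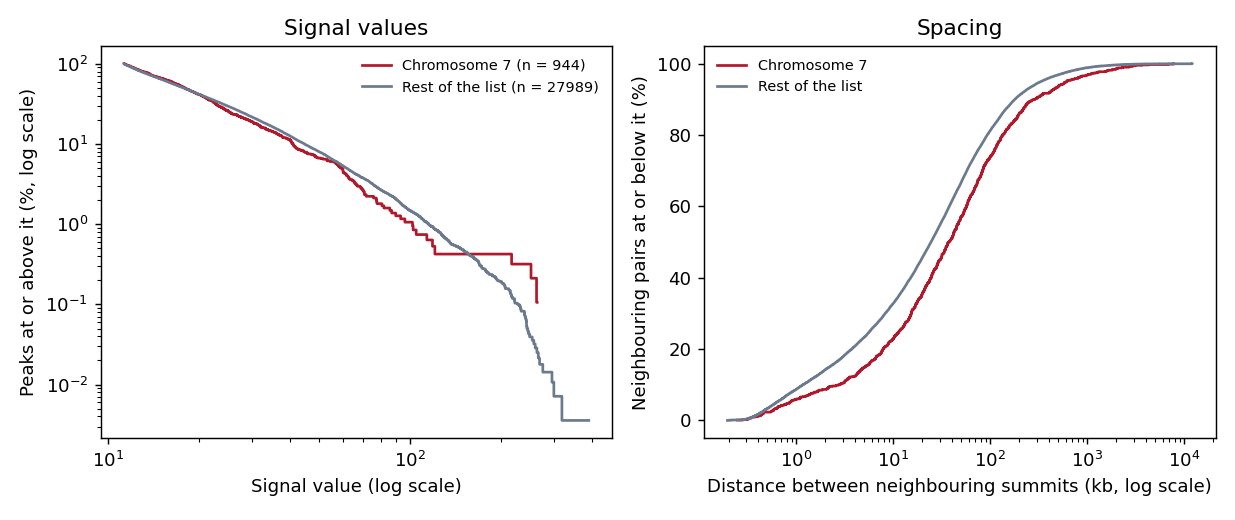
Left, percent of peaks at or above each signal value, and right, percent of neighbouring summit pairs at or below each distance in kb, for chromosome 7 and the rest of the list (log axes as labelled). The chromosome 7 curve runs below the rest between about 20 and 121 and above it between 200 and its end at 264, where it has 4 peaks, while the rest of the list reaches 391, and its median distance is 37.4 kb against 24.5 kb.

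The short-range groups were small. Linking summits at most 5 kb apart left 689 peaks single and gave 96 pairs, 13 groups of 3 and 6 groups of 4, with none larger. Group sizes are given for chromosome 7 alone, without those of the rest of the list. The groups of 4 spanned 3.10 to 7.53 kb, and their median signal values ran from 18.9 to 26.0. The one with the highest member lay between summits at 117263946 and 117267044 and reached 49.2. Peaks are all 460 bp wide, and 19 pairs overlapped, of 760 in the whole list, of which chromosome 7 held 3.26% of the peaks. The closest pair of summits, at 80682585 and 80682832, was 247 bp apart, with signal values of 17.7 and 20.4. Over the overlapping pairs, the median was 26.1 for the higher peak and 17.7 for the lower.

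Density was low outside the empty stretches too. With their length left out, chromosome 7 had 8.83 peaks per Mb, against 12.8 in the rest of the list, 8.12 on chromosome 12 and 6.09 on X. Only chromosomes 12 and X had fewer of the 20 compared, and chromosome 9 followed with 9.10. Windows of 1 Mb that held a peak held 8.50 on average on chromosome 7, against 13.03 in the rest.

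Gene families of the chromosome were counted in the RefSeq gene table of GRCm38.p6, a later assembly, by name and order only. Of the chromosome 7 peaks, 63 start beyond the last gene of that table, as do 125 on 5 other chromosomes, so that the coordinates cannot be set side by side. Chromosome 7 held 417 olfactory and vomeronasal receptor genes among 2030 coding genes, or 20.5%, the highest number of the 20 chromosomes. They were 126 of the 230 Vmn1r genes, 52 of the 123 Vmn2r genes and 239 of the 1110 olfactory receptor genes. Many of these genes stood in runs. Nearest the centromere were 11 Vmn1r genes (Vmn1r55 to Vmn1r65) and 8 olfactory receptor genes (Olfr1344 to Olfr1350). They were followed by 24 Vmn2r genes (Vmn2r29 to Vmn2r52), 19 Vmn1r genes (Vmn1r66 to Vmn1r84) and 5 more (Vmn1r85 to Vmn1r89). Then came 8 Sult2a, 6 Obox and 13 Psg genes, 86 Vmn1r genes between Igsf23 and Tescl, and 35 Scgb genes between Gramd1a and Wtip. A run of 8 Vmn2r genes (Vmn2r57 to Vmn2r126) followed. Farther along came 12 Vmn2r and 15 olfactory receptor genes between Zfand6 and Folh1. Some of these families were placed on the empty stretches from knowledge of this order, so that their agreement in order is no result.

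Other families of the chromosome were not assigned to a stretch of over 2 Mb. They included 26 Klk genes between Ctu1 and Acp4, which encode kallikrein proteases, and 15 Mrgpr genes between Ptpn5 and Zdhhc13, which encode receptors of sensory neurons and mast cells. A run of 91 olfactory receptor genes, which encloses the beta-globin genes, and the 35 that follow it, were also not among them. A later run of 67, from Olfr693 to Olfr519, is the family given above for the stretch that starts at 113380234. The last run, of 19 olfactory receptor genes from Olfr522 to Olfr541, was not assigned to a stretch. Nor were the 8 olfactory receptor genes from Olfr1344 to Olfr1350 and the 8 Vmn2r genes from Vmn2r57 to Vmn2r126. Which of the runs of 11, 19 and 5 Vmn1r genes lie in the first stretch was not looked up.

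Receptor genes of other chromosomes are given beside their peak density. Chromosome 12 had 5.98 peaks per Mb and none of these receptor genes in the table, and X had 3.42 and 7 genes. Chromosome 2 had 11.3 peaks per Mb and 287 receptor genes, the highest number after chromosome 7. Chromosome 9, with 130, came next and had 8.56 peaks per Mb. The part of receptor clusters in the low density of chromosome 7 was not tested.

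**Figure D4:**
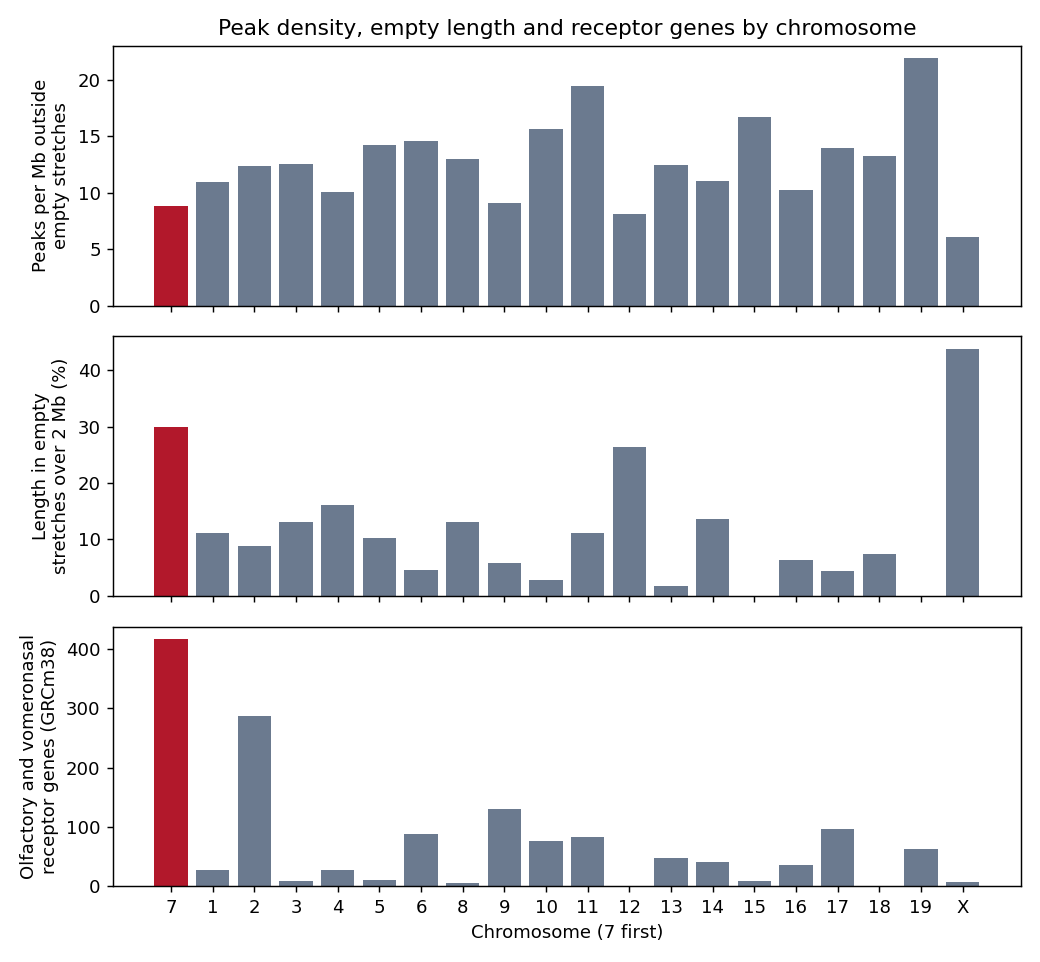
Peaks per Mb with empty stretches left out (top), percent of the chromosome in empty stretches of over 2 Mb (middle) and number of olfactory and vomeronasal receptor genes in the GRCm38.p6 table (bottom), with chromosome 7 at the left. Chromosome 7 has 8.83 peaks per Mb, 29.9% of its length in empty stretches and 417 receptor genes, while chromosome 12 has 8.12, 26.3% and 0.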

How the data were processed

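The submitters' processing notes name Bowtie and mm9, without a version. Which peak caller and settings were used, and whether libraries were pooled, is not stated in the labels or the file. Peaks came as 1 narrowPeak list in which the authors deposited a signal value per peak, a score with no stated scale, and a q-value on a linear scale, from 0.00014 to 0.00995. Depth is unknown. Coordinates are 1-based on mm9, and signal values were used as deposited. Peaks of chromosome 7 were taken by chromosome name; the members, lists and limits were chosen with earlier results of these data known. Items are named by a fixed rule: the 10 highest peaks, the sides of every stretch over 2 Mb, the blocks between them, the fullest windows of 1 Mb and 100 kb and the lowest peaks. Other values printed, such as intervals of 1 to 2 Mb, were chosen after they were seen. Chromosome length was the highest peak end, and runs of a gene family allowed 9 other genes between members and needed 5 members. Distances, blocks and merging were tested on 20 simulated lists and recovered in all 20. Python 3.11.15, numpy 2.4.6, scipy 1.17.1, pandas 2.3.3 and matplotlib 3.10.9 were used.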

Additional observations from a re-analysis of the deposited data

How the results depend on the processing

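No paired analysis was possible because libraries have no values of their own in the list, and for that reason no library could be left out. Keeping only peaks whose signal value was no lower than the list's median left 482 peaks on chromosome 7, or 3.16 per Mb. A q-value of at most 0.001 left 498, or 3.27 per Mb. Both limits remove peaks by construction. Empty stretches then took 40.8% and 39.01% of the chromosome, 13.1% and 12.7% of the peaks reached a signal value of 50, and 18.5% and 19.5% had another summit within 5 kb. A limit of 1 Mb gave 30 empty stretches and 45.9% of the length, and a limit of 3 Mb gave 5 and 16.8%. The share with a neighbour was 12.6% after merging summits closer than 2000 bp, 16.4% at a distance of 2 kb and 39.2% at 10 kb. Merging left 862 peaks and 13 stretches. Distances between peak edges or a length from first to last summit moved no value by over 1.5 times. Depth is unknown, so an empty stretch is one in which no peak was listed at this threshold.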

Other observations

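Promoters of the receptor families on chromosome 7 were set beside its other promoters, using 300 bases around each gene start (250 before and 50 after) from RefSeq on GRCm38.p6. Entries were found for 372 of the 417 receptor genes. Their median G+C content was 36.7%, against 54.3% for the other 1944 promoters of the chromosome. The median number of CpG dinucleotides was 1 for the receptors and 8 for the others, and 93 of the receptor promoters had none, against 105 of the others (5.40%). The 30 Scgb promoters had a median G+C content of 49.0%, and 15 of them had no CpG.

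The letters TGTTTAC, a core word of forkhead binding sites, were searched on both strands of these promoters. They were found in 10 of 372 receptor promoters (2.69%), against 84 of the other 1944 (4.32%), and in 3.55% of all 27025 promoters. By family they were found in 2 of 115 Vmn1r (1.74%), 0 of 48 Vmn2r and 8 of 209 olfactory receptor promoters (3.83%). The share of the olfactory receptors was thus above that of all promoters. Median G+C content differed between the receptor and other promoters, 36.7% against 54.3%, and the shares were not adjusted for it. A match is a description of letters, and peaks were not set against these promoters.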
